A study of Mus musculus with 4 samples.

Results

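The genes described here are 9 transcription factor genes of the interneuron lineage, Dlx1, Dlx2, Dlx5, Dlx6, Lhx6, Lhx8, Nkx2-1, Sp8 and Sp9, out of 21770 protein-coding genes placed on the assembled chromosomes. They were chosen by name, and because Dlx1 with Dlx2 and Dlx5 with Dlx6 stand side by side, they make up 7 loci. CTCF occupancy was measured by chromatin immunoprecipitation and sequencing in wild-type mouse cortical neurons, taken from Swiss-Webster embryos at day 16 and grown for 13 days without treatment, with 2 CTCF immunoprecipitations, labelled as biological replicates of about 15M cells each, and 2 inputs. The data are 1 joint list of 33820 peaks (mm10), each called in both immunoprecipitations, with an irreproducible discovery rate (IDR) no higher than 0.05. There is 1 condition and 1 list, so no test between samples was possible, and every value below is a description. Where the same value was computed for all protein-coding genes or all peaks, it is given beside it. Read depth is unknown from the list. The list holds no expression values, so which cells of the culture carried a peak, interneurons or others, was not tested.

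CTCF, which binds DNA through its zinc fingers, halts the loop-extruding cohesin complex and so marks the borders of chromatin loops. Cortical interneurons, the inhibitory neurons that release GABA, are born in the ganglionic eminences of the ventral forebrain and migrate into the cortex. The homeobox genes Dlx1, Dlx2, Dlx5 and Dlx6 act in progenitors and young neurons across the eminences, and each Dlx pair is known to share enhancers that lie between and around its genes. Nkx2-1 specifies the medial eminence and switches on the LIM homeobox genes Lhx6, which is needed for parvalbumin and somatostatin interneurons, and Lhx8, which is needed for forebrain cholinergic neurons. Sp8 and Sp9, related zinc finger factors, act in interneurons of the caudal, lateral and medial eminences.

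No member had a CTCF summit within 1 kb of either end of its gene. The share was 0 of 9 members, against 29.2% of protein-coding genes (exact Clopper-Pearson 95% interval for the members 0 to 33.6%, counting error only). The interval holds the value of all genes, but it counts the 9 genes as independent draws, although the paired genes share their surroundings. Whether the share is lower than that of all genes was not tested. The members are short, from 3347 bp (Dlx2) to 24273 bp (Lhx8), and among the 9288 genes in that range of lengths 28.8% had an end summit. Summits lay just outside the 1 kb limit at Sp9 (1273 bp) and Dlx2 (1298 bp). Within 5 kb of an end stood 5 of 9 members (55.6%), Dlx2, Dlx5, Nkx2-1, Sp8 and Sp9, against 51.3% of protein-coding genes. With any base of a peak counted in place of its summit, 2 of 9 members had a peak within 1 kb of an end, Dlx2 and Sp9, against 36.1%. Of the other members, Lhx8 had its nearest summit 11745 bp from an end, Dlx1 14071 bp and Dlx6 17171 bp. Lhx6 was farthest at 60107 bp, a distance that 84.2% of protein-coding genes did not exceed. The median distance from an end to the nearest summit was 4375 bp for the members and 4589 bp for all protein-coding genes.

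**Figure D1:**
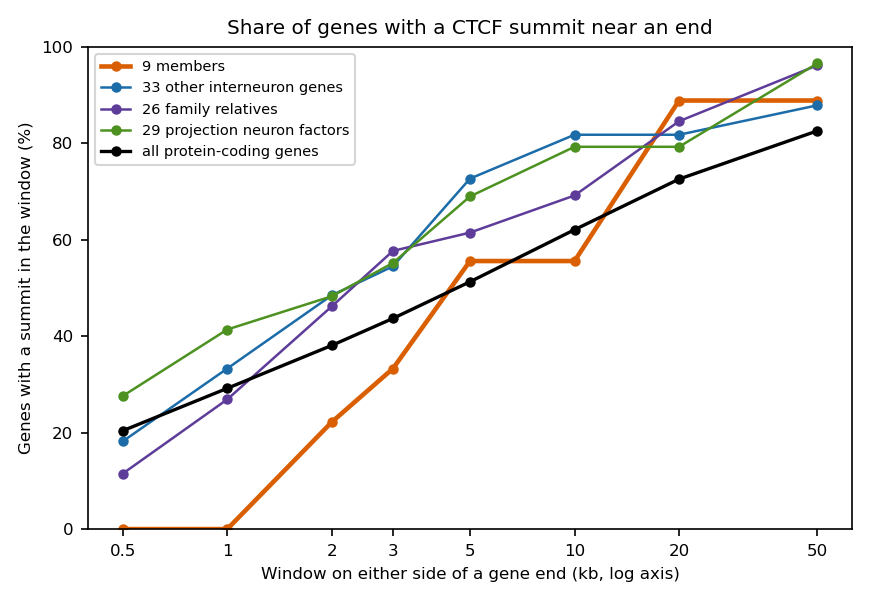
Share of genes (%) with a CTCF summit within a given distance (kb, log axis) of either gene end, for the 9 members, 3 other gene lists and all protein-coding genes. The members stood at 0% at 1 kb, below the 29.2% of all genes, and at 55.6% at 5 kb, near their 51.3%.

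The start regions nearest to these peaks are shown because they carry no summit although a peak lies close by. Each is the 250 bases before an annotated start (RefSeq, GRCm38.p6), written 5′ to 3′ on the gene's strand. Capitals mark matches on either strand to AGGNGGC, a core of the CTCF motif, to GGGCGG, the GC box that SP factors bind, and to TAATTA, a homeodomain core. The windows are Dlx2 at chr2:71546755-71547004 (minus strand), Nkx2-1 at chr12:56536909-56537158 (minus), Sp8 at chr12:118847309-118847558 (plus) and Sp9 at chr2:73271676-73271925 (plus).
Dlx2: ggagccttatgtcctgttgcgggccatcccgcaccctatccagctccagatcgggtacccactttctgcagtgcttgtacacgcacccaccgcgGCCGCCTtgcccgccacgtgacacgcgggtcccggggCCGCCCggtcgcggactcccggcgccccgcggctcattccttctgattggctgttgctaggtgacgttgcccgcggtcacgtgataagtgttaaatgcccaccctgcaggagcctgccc
Nkx2-1: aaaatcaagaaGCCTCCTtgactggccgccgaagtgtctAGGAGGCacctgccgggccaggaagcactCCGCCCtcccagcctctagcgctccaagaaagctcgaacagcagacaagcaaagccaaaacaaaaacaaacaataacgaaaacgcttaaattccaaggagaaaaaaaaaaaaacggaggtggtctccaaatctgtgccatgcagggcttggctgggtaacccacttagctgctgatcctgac
Sp8: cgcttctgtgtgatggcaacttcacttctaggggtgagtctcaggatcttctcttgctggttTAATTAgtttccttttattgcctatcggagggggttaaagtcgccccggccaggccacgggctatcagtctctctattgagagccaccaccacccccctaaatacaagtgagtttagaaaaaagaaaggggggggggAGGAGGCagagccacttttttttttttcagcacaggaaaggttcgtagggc
Sp9: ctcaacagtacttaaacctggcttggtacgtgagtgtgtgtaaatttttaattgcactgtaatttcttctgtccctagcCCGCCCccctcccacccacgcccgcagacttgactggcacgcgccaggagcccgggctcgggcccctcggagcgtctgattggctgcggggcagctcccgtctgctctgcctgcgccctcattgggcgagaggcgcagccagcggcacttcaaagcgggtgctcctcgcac
In these letters Nkx2-1 holds 2 matches to AGGNGGC, Dlx2 and this start of Sp8 hold 1 each and Sp9 holds none, and no capital run overlaps another. Of the 4, the Sp9 window alone was overlapped by a peak, whose summit lay 1273 bp upstream of the start.

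Promoter windows of 300 bases, 250 before and 50 after a start, were at hand for 7 of the 9 members, 11 windows in all because Sp8 and Lhx6 have 3 each. AGGNGGC was present in 4 of 11 windows (36.4%), against 29.4% of 32851 windows of all genes. A longer form, CC followed by 3 bases of any kind and then AGGNGGC, was present in 0 of 11, against 3.43% of all windows. GGGCGG was present in 7 of 11 windows (63.6%), against 35.7% of all windows. Those windows belong to 6 of the 7 genes, and a share per gene was not computed for all genes. TAATTA was present in 1 of 11 windows, the Sp8 start printed above, against 5.29%. The members' windows ranged in GC content from 43.0% (the first Sp8 start) to 69.3% (Dlx1), with a median of 55.3% against 52.7% over all windows. The start of Sp8 at the middle position had the highest ratio of observed to expected CpG, 1.19, and the first Sp8 start the lowest, 0.16. The median ratio was 0.64 over the members' windows and 0.38 over all windows. The members' windows come from 7 genes only, and several share a gene.

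Sp8 and Sp9, close relatives of each other, had the same arrangement of peaks: a strong peak a short way beyond the 3′ end and a weaker, broad peak inside the gene. An internal summit was not particular to them. Sp1, Sp2, Sp3, Sp6 and Sp7 also had one over 1 kb from their ends, while Sp4 and Sp5 had none. The share of all protein-coding genes with such an arrangement was not computed. Strength here is a value of the authors, −log10 p added over both replicates. Beyond the 3′ end of Sp8 the peak at chr12:118854866-118855774 had its summit 2769 bp from the gene. Its strength was 932.8, made up of 457.5 from the first replicate column plus 475.3 from the second, rank 893 of 33820. Beyond the 3′ end of Sp9 the peak at chr2:73277251-73279625 had its summit 2913 bp from the gene. Its strength was 1096.6, with 349.0 and 747.6 in the replicate columns, rank 562. These were the strongest peaks of all 46 within 200 kb of the 7 loci, and both stood in the top 3% of the list (2.64% and 1.66%), where the median strength was 165.5.

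The peaks inside the 2 Sp genes were also alike. Inside Sp8 (chr12:118848006-118850102, 2097 bp wide) the strength was 175.3, from 92.2 in the first column and 83.1 in the second. Inside Sp9 (chr2:73272744-73274805, 2062 bp wide) it was 170.1, from 97.8 and 72.3. The first column was the higher one at both, which holds for 5 of the 46 peaks at the loci, while 90.7% of all peaks were higher in the second. Both were wide for this list, whose median width was 1123 bp. Which of the exons, introns or coding parts these summits touch was not analysed here.

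Around the genes the 2 loci parted. Sp9 had 5 summits inside or within 10 kb of an end, the most of the 7 loci. This count was not made for all protein-coding genes. Beside the 2 above there were weaker peaks 1273 bp (strength 47.4) and 5706 bp (63.9) upstream and 6217 bp (58.4) beyond the 3′ end. Another peak, 10093 bp beyond that end (297.7), lay inside the neighbouring gene Cir1. Only 8032 bp separated the nearest summits on either side of Sp9, and 0.6% of protein-coding genes had an interval that short. The peak at 1273 bp that bounds it was weak and was not kept at an IDR of 0.01, where the interval measured 12465 bp and 1.4% of genes had one that short or shorter. An interval includes the gene itself, so both shares depend on gene length. Sp9 is 3846 bp long, and the median over all protein-coding genes was 17219.5 bp. A share among genes of like length was not computed. Sp8 had no peak on its 5′ side for 388354 bp, where a peak of strength 729.4 lay, and its interval of 397414 bp was longer than that of 81.9% of genes. No other protein-coding gene lies within that interval. On its 3′ side Sp8 had 5 peaks within 200 kb, 2 of them inside the transporter gene Abcb5 (299.6 and 204.4).

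**Figure D2:**
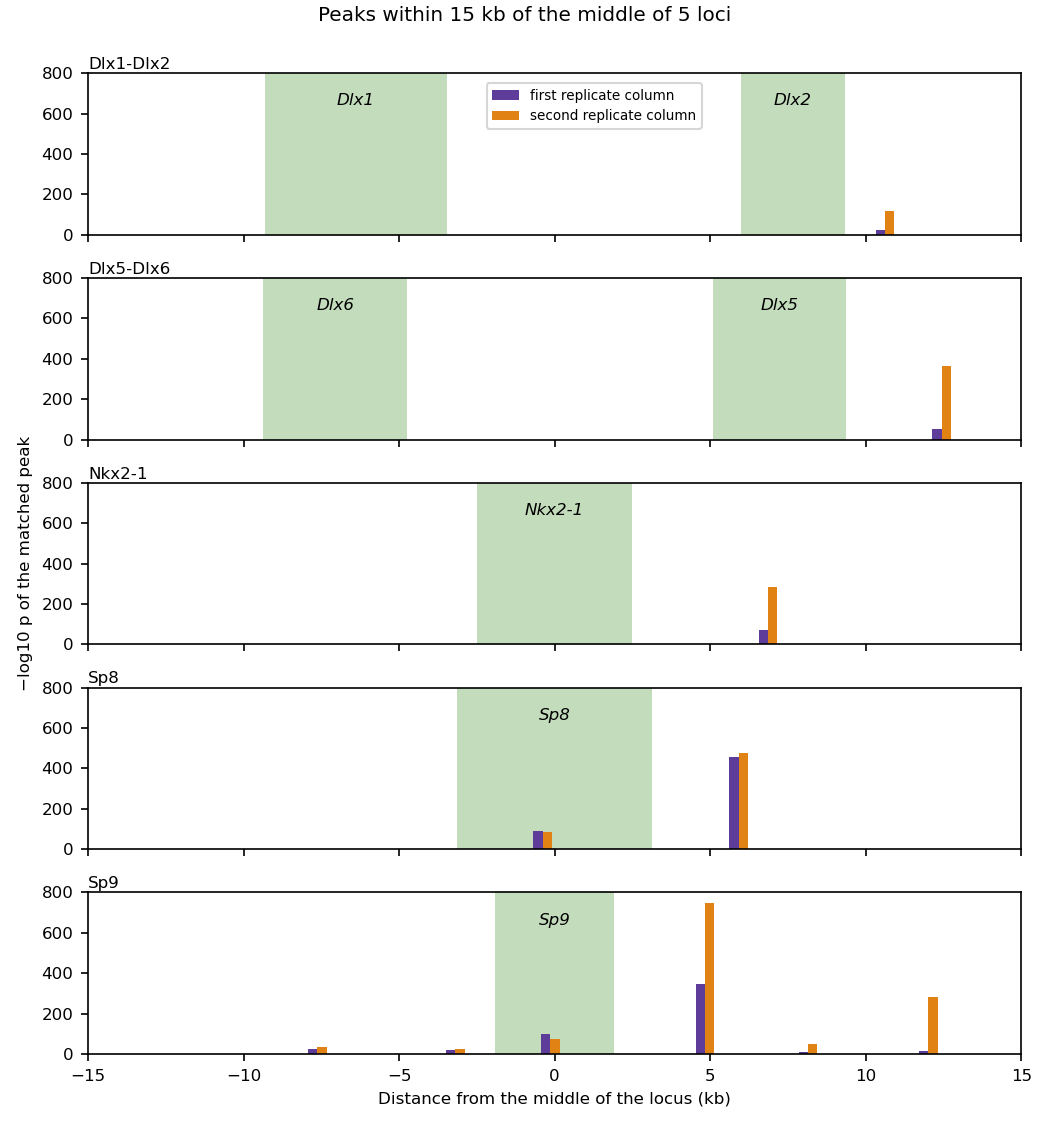
Peaks within 15 kb of the middle of 5 loci; the x axis gives the distance from the locus middle in kb and the y axis the −log10 p of the matched peak in the first and second replicate column, with member genes shaded. Sp8 and Sp9 each have an internal peak and a stronger peak to the right of the gene, at 457.5 and 475.3 for Sp8 and 349.0 and 747.6 for Sp9. The Dlx pairs hold none between or inside their genes.

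Neither Dlx pair held a summit anywhere between its outer ends, a stretch of 18642 bp for Dlx1 and Dlx2 and 18735 bp for Dlx5 and Dlx6. Such an absence was common: of 2694 neighbouring, non-overlapping pairs of protein-coding genes that span 15 to 30 kb, a range chosen after the values were seen, 49.0% held no summit. The stretch between the outer ends takes in the intergenic sequence, where some of the known shared forebrain enhancers of each pair lie. Both pairs had a peak close to the outer end at the higher coordinates. At Dlx2, which the promoter table places on the minus strand facing Dlx1, the peak at chr2:71547628-71548489 lay 1298 bp upstream of the start. Its strength was 143.3, from 26.2 in the first column and 117.0 in the second, a little under the median of the list. Beside Dlx5 the peak at chr6:6884635-6885707 lay 3073 bp outside the gene, with a strength of 420.5, from 53.8 and 366.7. It ranked 4924, stronger than the Dlx2 peak by its value in both columns. The Dlx2 peak was lost when only peaks over the median joint strength, or over either column's median, were kept, which left the nearest summit of Dlx1 and Dlx2 at 34421 bp, while that of Dlx5 and Dlx6 remained at 3073 bp.

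The far sides of the 2 pairs differed. Dlx1 and Dlx2 had 5 peaks within 200 kb, and the strongest of them was not the nearest. A peak at chr2:71580598-71581582, 34421 bp beyond Dlx2, had a strength of 504.3, with nearly equal columns of 243.5 and 260.8, in the top 10% of the list (9.88%). On the Dlx1 side stood 2 weak peaks, 52.2 and 64.9, at 50108 and 74910 bp, both at Metap1d, a mitochondrial methionine aminopeptidase gene. The second of them lay within 1 kb of an end of Metap1d. Dlx5 and Dlx6 had 4 peaks, all on the Dlx5 side. Their strengths were 420.5, 242.3, 166.6 and 126.2 at 3073, 33283, 73756 and 122140 bp, so the farther peaks of this flank were the weaker ones. The third lay within 1 kb of an end of Sdhaf3, an assembly factor gene of succinate dehydrogenase, and the fourth inside that gene.

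On the Dlx6 side the next summit was 857500 bp away, inside Dync1i1, a dynein intermediate chain gene. That peak, at chr6:6005096-6006720, was strong, 940.7 from 432.9 and 507.7 (rank 872). The interval between it and the peak beside Dlx5 measured 879308 bp, longer than that of 90.4% of protein-coding genes. It holds the whole of Slc25a13 and Sem1, a proteasome subunit gene, and part of Dync1i1, exons of which are known as limb enhancers of Dlx5 and Dlx6. Whether unmappable sequence takes up part of this interval was not tested.

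Nkx2-1 had 9 peaks within 200 kb, 8 of them on its 5′ side. The nearest, at chr12:56540684-56541912, lay 4375 bp upstream of the start inside the long non-coding RNA gene Gm26973, with a strength of 358.5 from 73.1 and 285.4. Peaks at 51035 and 55011 bp (329.0 and 217.9) lay inside the same non-coding gene. The peak at 75037 bp (93.1, from 55.4 and 37.7) also lay inside Gm26973, and within 1 kb of an end of Nkx2-9, a homeobox gene of the same family. Farther out were peaks at 100332, 138040, 144224 and 152980 bp with strengths of 366.3, 105.9, 195.1 and 84.4. On the 3′ side the only peak within 200 kb was 126873 bp away (207.1). The interval between the nearest summits, 136222 bp, holds no other protein-coding gene and was longer than that of 57.8% of protein-coding genes.

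Lhx6 and Lhx8, LIM homeobox relatives of nearly equal length, had different surroundings. Lhx6 (24043 bp) lay in an interval of 192419 bp with no summit. Its bounds were peaks 60107 bp (137.0) and 108269 bp (303.3) away, and 4 more protein-coding genes lie in it whole: Ndufa8, a respiratory complex I subunit gene, Morn5, Rbm18 and Mrrf, a mitochondrial ribosome recycling factor gene. Within 200 kb there were 9 peaks, 6 on the 3′ side and 3 on the 5′ side. The strongest of the 9, 430.1 from 87.0 and 343.2, lay in Ttll11, and the weakest, 50.1 from 32.2 and 18.0, inside Ptgs1, the cyclooxygenase-1 gene.

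Lhx8 (24273 bp) had a summit of its own inside the gene, at chr3:154317665-154318306, with a strength of 84.8 from 22.3 and 62.5. Only 3 other peaks lay within 200 kb. The strongest, 689.0 from 178.9 and 510.1, stood 36374 bp beyond the 3′ end inside Slc44a5, a choline transporter-like gene, and ranked 1734. The others had strengths of 254.0 at 79686 bp on the same side and 120.0 at 34500 bp on the 5′ side.

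**Figure D3:**
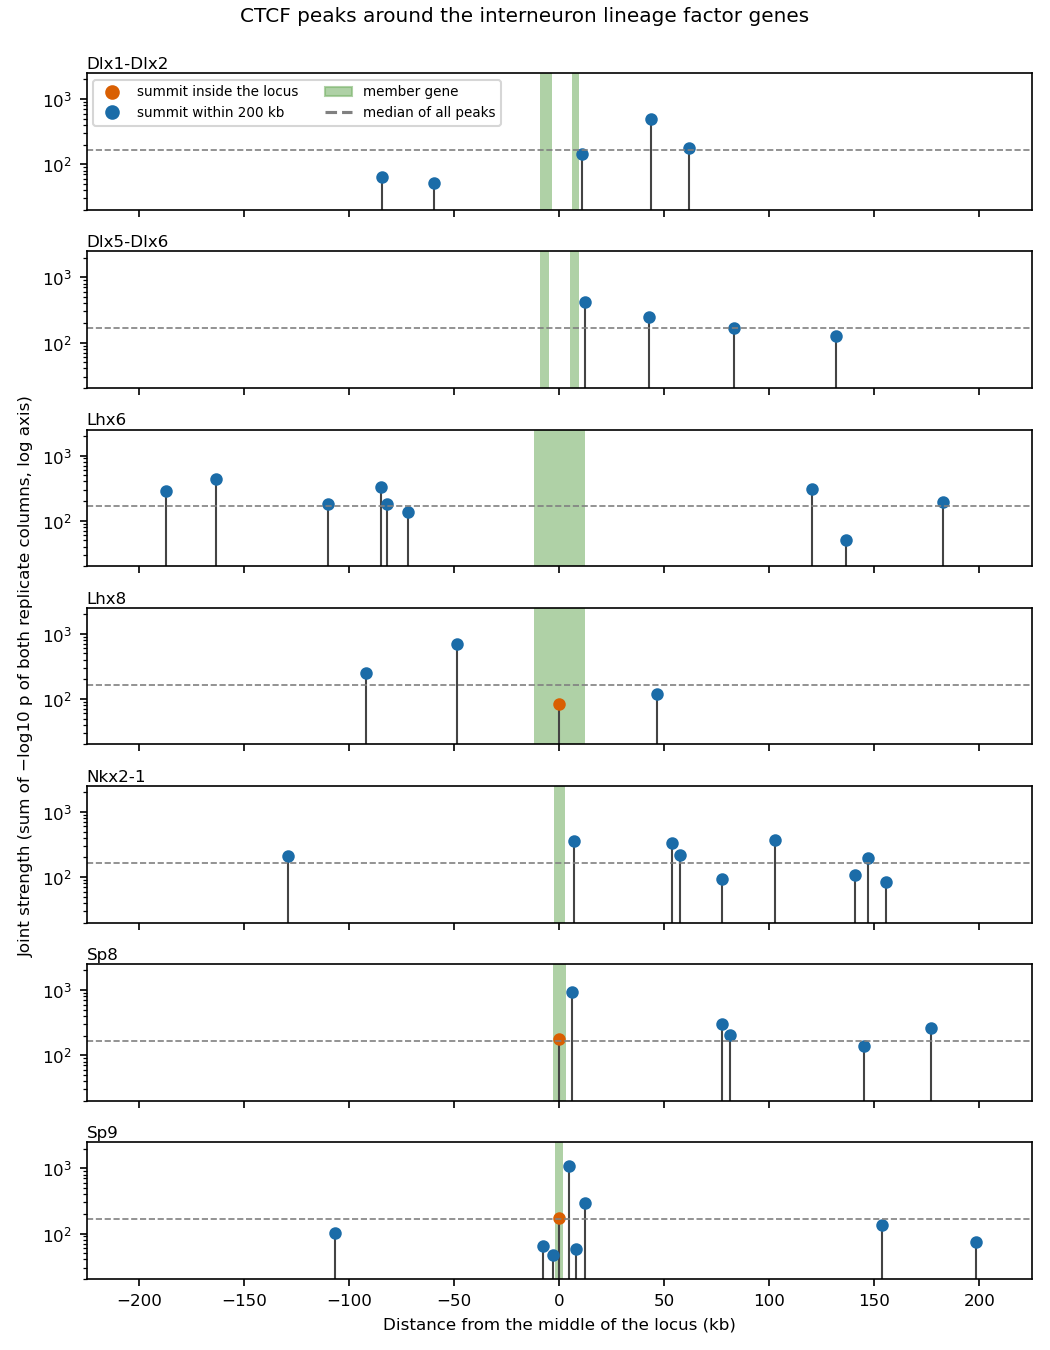
All 46 peaks within 200 kb of the 7 loci, by distance from the locus middle (kb) and joint strength (log axis), with member genes shaded and the median of all peaks (165.5) dashed. Sp8 and Dlx5-Dlx6 have no peak to the left of the locus, and Sp9 has a cluster around the gene.

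The 7 loci thus had from 4 to 9 summits within 200 kb: 4 at Dlx5-Dlx6 and Lhx8, 5 at Dlx1-Dlx2, 6 at Sp8 and 9 at Lhx6, Nkx2-1 and Sp9. All 7 stood below 10, the median of all protein-coding genes, but counts this low were not rare. Of those genes 49.1% had 9 or fewer, 32.3% had 6 or fewer, 27.2% had 5 or fewer and 22.5% had 4 or fewer. The stretch counted includes the gene itself, so these shares depend on gene length. The count at Sp9 was the least stable of the highest 3: it was 5 at an IDR of 0.01, against 8 at Lhx6 and 9 at Nkx2-1, and 3 over the median strength, against 7 and 6. A summit lay inside 3 of 9 members (33.3%), Lhx8, Sp8 and Sp9, against 35.5% of protein-coding genes. When only peaks over the second column's median were kept, the count was 0, against 22.3%. The members had a median length of 4974 bp and all protein-coding genes one of 17219.5 bp. A longer gene has more room for a summit, and a share among genes of the members' lengths was not computed. Of the 46 summits, 3 lay inside members and none at a member's end. Another 3 stood within 1 kb of an end of a neighbouring protein-coding gene (Metap1d, Sdhaf3 and Nkx2-9), 12 deeper inside neighbours and 28 outside protein-coding genes. The same split was not made for all peaks. The peaks just inside and just outside the 200 kb limit were both at Sp9, at 196519 bp and 203206 bp.

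The 46 peaks were like the list in strength, with a median of 179.7 against 165.5, and 28 of the 46 exceeded the median of the list. The second replicate column exceeded the first at 41 of 46 (89.1%), against 90.7% of all peaks. Among the 11 peaks inside a member or within 10 kb of a member's end, the median log2 ratio of the second column to the first was 1.10. It was 2.54 among the 35 peaks farther out and 1.91 among all peaks. The first column's median was 53.84 for the 11 near peaks and 30.87 for all peaks, and the second column's was 83.08 and 128.88. The depth behind each column is unknown, and 5 of these 11 peaks belong to Sp9 alone.

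**Figure D4:**
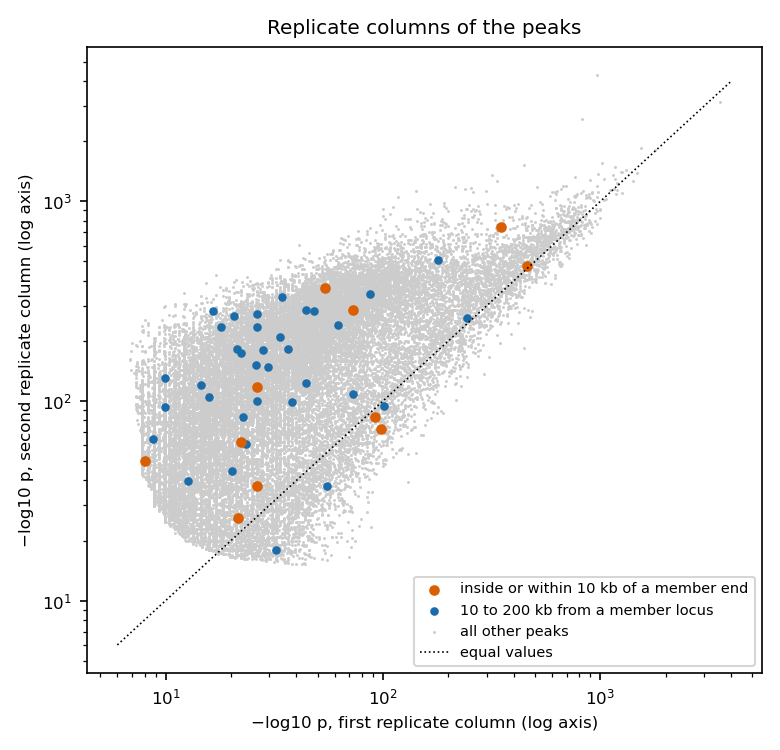
Values of each peak in the first and second replicate column (−log10 p, log axes) for the 11 peaks near the members, the 35 peaks 10 to 200 kb from a locus and all other peaks; the dotted line marks equal values. The peaks inside Sp8 and Sp9 lie below the line, and most others lie above it.

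Counts for other genes of the lineage and of the members' families are set beside those of the members without a test of the difference. Over all protein-coding genes 29.2% had a summit within 1 kb of an end and 51.3% within 5 kb. Of 33 other interneuron genes 11 had a summit within 1 kb of an end (33.3%) and 24 within 5 kb (72.7%). The strongest end peaks were at Calb2, a calcium-binding protein gene of some interneurons (1433.3), at Sox6, a factor that acts after Lhx6 (944.5), and at Ackr3, a chemokine receptor gene of migrating interneurons (579.6). Of 26 relatives of the members in the Dlx, LIM, Nkx and Sp families 7 had an end summit (26.9%), led by Sp5 (462.2), Sp2 (400.9) and Lhx5 (345.3). Within 5 kb, 16 of the 26 relatives had one (61.5%). Of 29 transcription factor genes of cortical projection neurons 12 had an end summit (41.4%), led by Cux2 (1691.0), Cux1 (820.4) and Neurod6 (264.1). Within 5 kb, 20 of these 29 had one (69.0%). Mef2c is in both this list and that of the other interneuron genes. Summits within 200 kb numbered a median of 5 for the members, 7 for the other interneuron genes, 11.5 for the relatives and 7 for the projection neuron factors, against 10 for all protein-coding genes. The members' median counts the surroundings of each Dlx pair once per gene, and over the 7 loci the median was 6.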

How the data were processed

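Wild-type mouse cortical neurons gave 2 CTCF immunoprecipitations and 2 inputs. The submitters' processing notes name MACS2, BWA, SAMtools, Trimmomatic and FastQC, and as builds GRCm38.p6 and mm10; versions, thresholds and the use of the inputs are not stated there. The deposited table joins the peaks of both replicates in the layout of the IDR program and holds no input values. Its −log10 p per replicate column, their sum (the joint strength, checked in all 33820 rows to within 0.01) and its rescaled IDR score, not used here, were made by the authors and depend on depth, which is unknown. No column is tied to a labelled replicate.

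Gene bounds came from the RefSeq table (GRCm38.p6, which is the peaks' build), without transcripts or exons. Left out were 348 genes on scaffolds and 4 without a position. A summit was classed as at an end (within 1 kb), inside, or within 200 kb of a locus, and a gene's interval ran between the nearest summits beyond its bounds. Strands and starts came from the RefSeq promoter table, which matched 7 of the 9 members. The members and lists were chosen with earlier results of these data known. Named genes were the members, neighbours with an end at a counted summit, the nearest neighbours and the 3 strongest end peaks of each list; others were named after their values were seen. With 1 condition and 1 list no test was run, and a planned comparison of protein sequences was not made. The counting code was tested on simulated data, with peaks planted at 200 genes, and recovered all 200. Alternatives changed the strength or IDR threshold, the replicate column, the part of the peak counted, the end window, the flank, the pairing of genes, the background genes and the motif. The tools were matplotlib 3.10.9, scipy 1.17.1, pandas 2.3.3, numpy 2.4.6 and Python 3.11.15.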

Additional observations from a re-analysis of the deposited data

How the results depend on the processing

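The count of members with an end summit stayed at 0 among peaks above the median joint strength (14.9% of protein-coding genes had one), over the first column's median (21.1%) or the second's (13.1%), at an IDR of 0.01 (23.3%) and with end windows of 500 bp (20.4%), and 17.9% of all genes had one. These shares are under the upper limit of 33.6% for 0 of 9. No test was made and the members are few, so the constant 0 says little. It was 2, Dlx2 and Sp9, when any base of the peak counted (36.1% of protein-coding genes), and 5 with windows of 5 kb (51.3%). Both settings reach farther from an end by construction. Members with a summit inside numbered 2 among peaks above the median strength (22.2% of protein-coding genes) or above that of the first column (21.7%), and 0 above that of the second (22.3%). These shares of protein-coding genes were not matched to the members' lengths. The internal peaks of Sp8, Sp9 and Lhx8 all fell below the second column's median, so none passed by that column. The 46 summits within 200 kb, of which 43 lay outside the loci, became 28 (26 outside) above the median strength, 21 (19) when peaks had to exceed the first column's median and 24 (24) for the second column's, with fewer peaks by construction. They numbered 30 within 100 kb and 104 within 500 kb. Of the 11 promoter windows 0.0% held the longer motif. For single loci, 26 of 88 alternative values moved by over 1.5 times. No paired analysis was possible because the list joins both replicates and holds no value for the inputs, and leaving out a replicate was not possible either. Unknown depth limits every strength.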

Other observations

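The third Dlx pair, Dlx3 and Dlx4 on chromosome 11, had the arrangement of the other two, which was noticed after the values were seen. Its 2 genes held no summit between their outer ends, as was the case for 49.0% of neighbouring pairs of protein-coding genes with a span of 15 to 30 kb. A peak of strength 471.7 (97.7 and 374.0 in the replicate columns, chr11:95115774-95119211) lay 2156 bp outside Dlx3 and 22486 bp from Dlx4. In each of the 3 pairs the near peak was thus beside Dlx2, Dlx3 or Dlx5, which form one branch of the family tree, at 1298, 2156 and 3073 bp. Dlx1, Dlx4 and Dlx6, of the other branch, stood 14071, 22486 and 17171 bp from that same peak. These near distances were common: 44.0% of protein-coding genes had a summit no farther than 3073 bp from an end. The larger distances take in the near gene and the space up to its partner, since no summit lay between the outer ends. Whether the branch of the family tree bears on which gene stood nearer was not tested. The Dlx2 peak (143.3) was under the median strength of the list and was lost when only peaks over that median, or over either column's median, were kept, so the pattern then held for the other 2 pairs alone. With 3 pairs this is a description.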
